A study of Mus musculus with 8 samples.

Results

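The interleukin-1 (IL-1) family cytokines, decoys and antagonists of bone marrow-derived macrophages (BMDM) are described here as 8 genes out of 53819 in the count table. They are the agonists *Il1a*, *Il1b*, *Il1f9* (IL-36 gamma) and *Il18*, the receptor antagonist *Il1rn*, the decoy receptor *Il1r2*, the IL-18 binding protein *Il18bp* and the shared receptor chain *Il1rap*. The members were chosen by name with their measured change between bilirubin and vehicle cultures known, so every change given for them is a description and carries no test. Of the 8 members, 7 passed the filter on low counts and entered the fit with 13722 genes in all, and *Il1r2* did not.

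Bone marrow came from 8-week-old female Balb/cJ mice, and each of 4 mice gave a pair of cultures. The cells were grown for 5 days with M-CSF at 25 ng/mL, the growth factor that turns marrow progenitors into macrophages. One culture of each pair then received 2.5 µM bilirubin, the bile pigment formed from heme, and the other received DMSO as vehicle, both for 48 h. The polyA-selected RNA of the 8 cultures was sequenced in bulk, so that fewer cells of a type and less RNA per cell cannot be told apart. The study compared the cultures to learn whether exogenous bilirubin alters macrophages.

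Estimated counts summed to between 34142781 and 47071714 per library. Markers of macrophages were abundant in every library, with a summed level of 24600 to 24900 CPM (counts scaled to the library's size) in vehicle and 29000 to 31100 CPM in bilirubin cultures. In the sum, *Lyz2*, which encodes lysozyme, rose from 19100 to 24400 CPM and made up most of it. Markers of T, NK and B cells summed to at most 1.81 CPM, of dendritic cells to at most 1.51 CPM, of mast cells and basophils to at most 0.0995 CPM and of erythroid cells to at most 0.265 CPM. Markers of fibroblasts summed to between 0.597 and 5.94 CPM.

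IL-1 alpha and IL-1 beta act on the receptor IL-1R1, IL-36 gamma acts on IL-1RL2, and all 3 recruit the accessory chain IL-1RAP to signal through MyD88 and NF-kappaB. IL-1 receptor antagonist, the product of *Il1rn*, occupies IL-1R1 without signaling, and the decoy IL-1R2 binds IL-1 without passing on a signal. IL-18 signals through IL-18R1 and IL-18RAP and is held in solution by IL-18 binding protein. Macrophages make IL-1 beta and IL-18 as precursors that inflammasome caspases cut before release.

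All 8 members were located on the GRCm39 mouse genome with the GENCODE annotation. *Il1a* (ENSMUSG00000027399) lies on the minus strand at chr2:129140291-129152098 and *Il1b* (ENSMUSG00000027398) on the same strand at chr2:129206490-129213059, with 54391 bases between them. *Il1f9* (ENSMUSG00000044103) and *Il1rn* (ENSMUSG00000026981) lie on the plus strand of the same chromosome, at chr2:24072000-24083585 and chr2:24226865-24241506, with 143279 bases between them. The other members are scattered. *Il18* (ENSMUSG00000039217) is at chr9:50466081-50493633, *Il18bp* (ENSMUSG00000070427) at chr7:101638490-101668206, *Il1r2* (ENSMUSG00000026073) at chr1:40113239-40164391 and *Il1rap* (ENSMUSG00000022514) at chr16:26400350-26548880.

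The sequences around the transcription starts of the members with higher values in bilirubin cultures are shown because these genes lie in neighboring pairs on one chromosome. Each runs 5′ to 3′ on the strand of the gene, from 250 bases before to 50 bases after the annotated start, in the reference genome of GRCm39. Letters are lower case except for matches to the kappaB consensus (given here by its name alone), to the AP-1 motif TGANTCA and to the C/EBP motif TTNNGNAA, which are in capitals. The windows are chr2:129152049-129152348 for *Il1a* and chr2:129213010-129213309 for *Il1b*, both on the minus strand. On the plus strand they are chr2:24076238-24076537 for *Il1f9*, chr2:24226615-24226914 for the canonical start of *Il1rn* and chr2:24235072-24235371 for its downstream start, which was added after the values were seen because most *Il1rn* signal was assigned to it.
Il1a: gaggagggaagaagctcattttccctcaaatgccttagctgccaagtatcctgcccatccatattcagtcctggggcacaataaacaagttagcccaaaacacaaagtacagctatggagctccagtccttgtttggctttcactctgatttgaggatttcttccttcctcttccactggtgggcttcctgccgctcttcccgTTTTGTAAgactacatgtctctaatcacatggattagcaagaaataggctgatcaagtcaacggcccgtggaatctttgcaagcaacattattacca
Il1b: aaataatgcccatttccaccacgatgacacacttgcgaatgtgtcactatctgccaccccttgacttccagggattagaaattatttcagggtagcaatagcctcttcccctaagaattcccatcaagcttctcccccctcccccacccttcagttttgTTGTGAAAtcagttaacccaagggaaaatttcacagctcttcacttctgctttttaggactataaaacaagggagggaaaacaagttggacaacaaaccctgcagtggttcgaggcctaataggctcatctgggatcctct
Il1f9: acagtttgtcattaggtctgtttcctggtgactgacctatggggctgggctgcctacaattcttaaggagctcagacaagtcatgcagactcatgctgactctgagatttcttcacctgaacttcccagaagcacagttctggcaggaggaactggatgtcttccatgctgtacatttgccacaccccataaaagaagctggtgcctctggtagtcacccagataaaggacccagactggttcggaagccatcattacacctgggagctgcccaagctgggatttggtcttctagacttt
Il1rn canonical start: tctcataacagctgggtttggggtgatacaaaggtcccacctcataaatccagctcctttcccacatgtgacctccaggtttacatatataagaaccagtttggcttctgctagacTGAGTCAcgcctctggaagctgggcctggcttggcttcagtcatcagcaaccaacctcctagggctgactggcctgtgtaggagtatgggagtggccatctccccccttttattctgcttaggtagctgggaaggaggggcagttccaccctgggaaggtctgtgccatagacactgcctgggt
Il1rn downstream start: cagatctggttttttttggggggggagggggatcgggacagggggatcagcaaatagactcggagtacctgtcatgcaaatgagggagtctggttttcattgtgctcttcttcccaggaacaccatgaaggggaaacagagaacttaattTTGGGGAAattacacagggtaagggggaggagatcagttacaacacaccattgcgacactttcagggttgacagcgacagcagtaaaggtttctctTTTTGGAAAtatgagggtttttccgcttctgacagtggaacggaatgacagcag

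Matches were counted on both strands, and positions are given from the start, with the first base of the match on the gene strand. *Il1a* held 1 C/EBP match at -47 and *Il1b* 1 at -91. The window of *Il1f9* held none of the kappaB, AP-1 or C/EBP matches and 1 match to the short PU.1 motif GAGGAA at -104, and *Il1a* held 1 such match on the other strand at -85. The only AP-1 match of the 9 windows examined lay at -134 of the canonical *Il1rn* start. The downstream *Il1rn* start held C/EBP matches at -100, -4 and -3, the last pair overlapping. Members that were not clearly higher held such matches too. The window of *Il18* held C/EBP matches at -220, -219 and -193 and GAGGAA on the other strand at -34. The windows of *Il18bp* and *Il1r2* held 1 C/EBP match each, at -42 and -10. None of the windows held the kappaB motif or the longer PU.1 motif GAGGAAGT. Among 21770 promoter windows of the same length, 4.87% held the kappaB motif, 7.14% AP-1, 40.47% C/EBP, 27.54% GAGGAA and 3.07% GAGGAAGT. A match describes letters in these windows and is not a bound site.

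The 3 agonists *Il1a*, *Il1b* and *Il1f9* were low in vehicle cultures and higher after bilirubin in each of the 4 mice, with no overlap between the groups. *Il1rn* started from a high level and was higher by a smaller fold. *Il18* and *Il1rap* differed by less than the spread between mice, and *Il18bp* was higher in 3 of 4 mice with overlap between the groups. Across the fit, 7.53% of tested genes passed an adjusted p of 0.05 in either direction and 4.49% passed as higher. Of the 7 members tested, 4 passed, all higher, and since this contrast chose them nothing is read from that count.

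*Il1a* encodes IL-1 alpha, which is active without cleavage and is released by damaged cells. It had 9, 8, 3 and 17 estimated counts with vehicle in mice 1 to 4 and 84, 51, 143 and 105 with bilirubin. *Il1a* passed the filter on low counts through its bilirubin cultures. In library-scaled CPM the values were 0.189, 0.212, 0.0688 and 0.4 against 2.42, 1.41, 3.56 and 2.61. The lowest bilirubin culture, that of mouse 2, was thus above the highest vehicle culture, that of mouse 4. The fitted log2 fold change was 3.51 ± 0.43 (SE, n = 4 pairs), an 11.42-fold difference. Within mice the log2 differences were 3.37, 2.48, 4.93 and 2.57. The mouse with the largest difference, mouse 3, rested on 3 vehicle counts against 143, a ratio of 51.8 with a 95% exact interval of 17.4 to 254 for counting error only. Summed over the 4 mice, 37 counts stood against 383, a ratio of 11.7 with an interval of 8.37 to 16.9.

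*Il1b* encodes IL-1 beta, the cytokine cut by caspase-1. Its estimated counts were 30, 20, 32 and 56 in vehicle and 147, 95, 430 and 243 in bilirubin cultures of mice 1 to 4. The CPM values were 0.631, 0.53, 0.734 and 1.32 against 4.23, 2.63, 10.7 and 6.05. Every bilirubin culture exceeded every vehicle culture, and mouse 3 again had the highest treated value. The log2 fold change was 2.80 ± 0.28 (SE, n = 4 pairs), or 6.95-fold, with 2.65, 2.21, 3.78 and 2.16 within mice.

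*Il1f9* encodes IL-36 gamma, an agonist best known from epithelia. Its estimated counts were 34, 30, 39 and 16 in vehicle and 68, 236, 241 and 173 in bilirubin cultures, or 0.715, 0.795, 0.894 and 0.376 CPM against 1.96, 6.53, 6.01 and 4.3 CPM. The groups did not overlap, and mouse 1 had the lowest treated value. The log2 fold change was 2.68 ± 0.30 (SE, n = 4 pairs), or 6.39-fold. Mouse 1, at 1.39, stood below mice 2, 3 and 4, at 2.96, 2.68 and 3.35, so the order of mice differed from that of *Il1a* and *Il1b*.

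*Il1rn* encodes IL-1 receptor antagonist. Its estimated counts were 1332, 1314, 1645 and 1556 in vehicle and 1279, 1920, 2211 and 2117 in bilirubin cultures. The CPM values were 28.0, 34.8, 37.7 and 36.6 against 36.8, 53.2, 55.1 and 52.7. Mouse 1 was lowest in both groups, and its bilirubin culture fell within the vehicle range, so the groups overlapped although all 4 pairs were higher. The log2 fold change was 0.52 ± 0.05 (SE, n = 4 pairs), or 1.43-fold, and the pairs lay close together at 0.39, 0.61, 0.55 and 0.53.

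*Il18* encodes IL-18, whose precursor many macrophages hold before stimulation. It was at 3.55, 2.46, 3.0 and 3.41 CPM in vehicle and 4.03, 3.18, 2.69 and 2.74 CPM in bilirubin cultures. The groups overlapped, 2 pairs were higher and 2 lower, and the log2 difference was 0.02 ± 0.16 (SE, n = 4 pairs). *Il18bp*, whose product binds free IL-18, was at 2.33, 1.88, 2.36 and 2.49 CPM against 3.11, 2.71, 2.97 and 2.46 CPM. Its log2 difference was 0.31 ± 0.16 (SE, n = 4 pairs), with mouse 4 at -0.02 and the others between 0.32 and 0.52.

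*Il1rap* encodes the chain that the IL-1, IL-33 and IL-36 receptors share. Its CPM values were 13, 17.4, 13.9 and 16.2 in vehicle and 15.1, 15.4, 14.5 and 12.8 in bilirubin cultures. The bilirubin values all lay within or just below the vehicle range, and the log2 difference was -0.06 ± 0.09 (SE, n = 4 pairs). *Il1r2*, the decoy receptor, had 19, 3, 0 and 4 estimated counts in vehicle and 0, 0, 1 and 4 in bilirubin cultures. Apart from vehicle mouse 1 the decoy was at or near 3 counts, the limit that a count of 0 allows, and no fold change is given. None of its counts was assigned to the canonical transcript ENSMUST00000027243, which was at 0 in all 8 libraries. The 19 counts of vehicle mouse 1 were assigned to ENSMUST00000195770, annotated for nonsense-mediated decay.

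**Figure D1:**
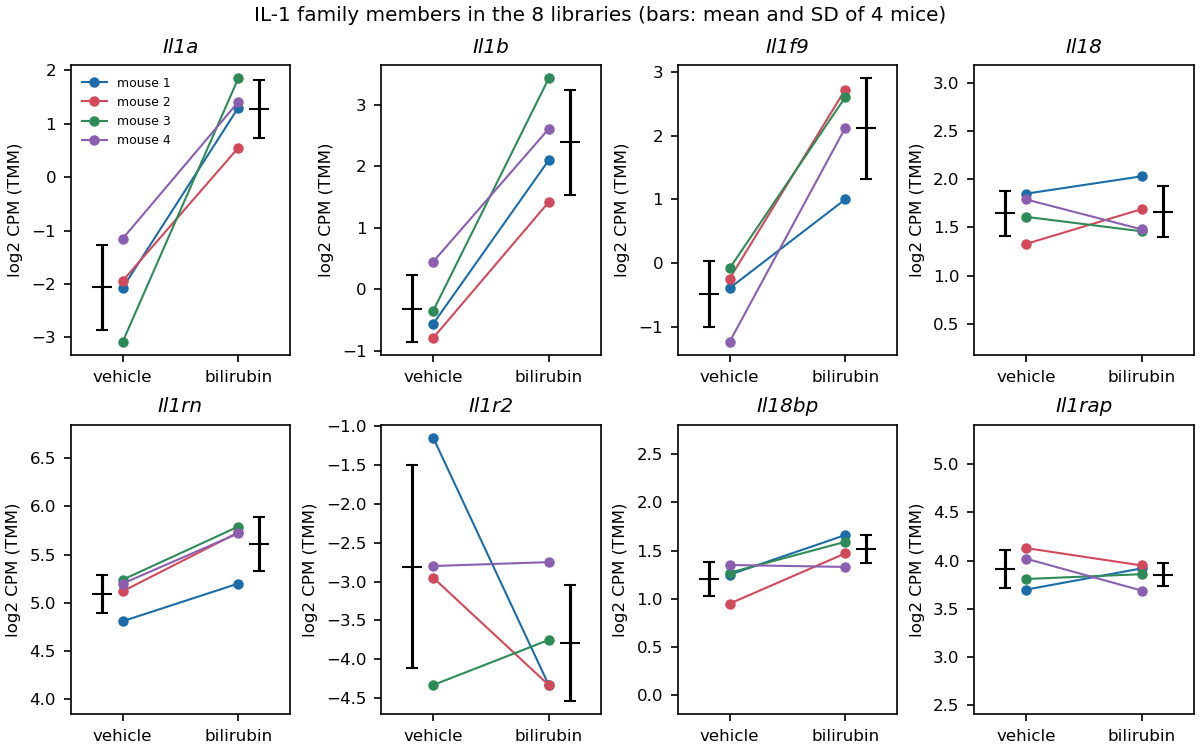
Each panel plots log2 CPM of one member in the vehicle and bilirubin cultures, with a line joining the cultures of one mouse and black bars for the mean and SD of 4 mice. The axes span different ranges; *Il1a*, *Il1b* and *Il1f9* separate the groups, *Il1rn* is higher in all 4 pairs with overlap, and *Il1r2* lies near 0 counts.

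Over all 13722 tested genes, 1458 (10.6%) had groups that did not overlap in log2 CPM, and 3 of the 7 tested members were among them. The within-mouse differences of *Il1a* and *Il1b* were the closest of the agonist pairs, with a root mean square distance of 0.72 on the log2 scale, against 1.1 for *Il1b* and *Il1f9* and 1.57 for *Il1a* and *Il1f9*. Among the tested genes whose mean expression reached 1 in log2 CPM, the 4 differences of *Il1a* lay closest to those of *Fpr1*, a formyl peptide receptor (0.47), *Cxcl1*, a neutrophil chemokine (0.70), and *Il1b*. For *Il1b* the closest were *Slpi*, a secreted protease inhibitor (0.45), *Slc39a4*, a zinc importer (0.49), and *Mmp14*, a membrane metalloproteinase (0.51). For *Il1f9* they were *Cxcl2* (0.40), *Cdc42ep2* (0.58) and *Adh7* (0.63). *Cxcl2*, which encodes another neutrophil chemokine, had the same low value in mouse 1, at 1.38, and 2.87, 2.76 and 2.56 in mice 2 to 4. For *Il1rn* the closest were *Gm20056* (0.07), *H2-K2* (0.08) and *Sdc4*, a heparan sulfate proteoglycan (0.09). These distances describe 4 pairs.

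The neighbors of the paired genes were examined after the values of the members were seen. Within 250000 bases of *Il1a* and *Il1b*, the tested protein-coding genes were *Ttl*, *Polr1b*, *Chchd5*, *Slc20a1*, *Ckap2l*, *F830045P16Rik* and *Sirpa*, and within the same distance of *Il1f9* and *Il1rn* they were *Hnmt* and *Psd4*. Their log2 fold changes lay between -0.23 and 0.12. None of these 9 genes passed in edgeR (adjusted p between 0.411 and 0.996), 0 had an unadjusted p under 0.05, and 0 passed in DESeq2 or limma. The IL-1 family genes *Il1f5*, *Il1f6*, *Il1f8* and *Il1f10*, which sit in the same stretch as *Il1f9* and *Il1rn*, did not reach the filter. *Il1f6* had at most 2 counts in a library, and the other 3, like *Il33*, were at 0 in all 8 libraries.

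Levels of different genes were compared per length, as TPM, the transcript level scaled for length and depth. In vehicle cultures *Il1rn* stood first at 38.0 ± 6.23 TPM (SD, n = 4), above 72.5% of tested genes. *Il18* followed at 7.04 ± 1.22 TPM and *Il1rap* at 6.07 ± 0.766 TPM, and their ranges overlapped. *Il18bp* was next at 2.69 ± 0.719 TPM. The inducible agonists were at the bottom, with *Il1b* at 1.05 ± 0.46 TPM, *Il1f9* at 0.731 ± 0.235 TPM and *Il1a* at 0.188 ± 0.118 TPM. The ranges of *Il1b* and *Il1f9* overlapped, and that of *Il1a*, 0.0589 to 0.344 TPM, lay below both. *Il1r2*, at 0.715, 0.139, 0 and 0.165 TPM, lay between *Il1f9* and *Il1a* and changed places with *Il1a* when CPM per kilobase was used. In the bilirubin cultures *Il1rn* was still first at 51.9 ± 7.51 TPM, and *Il1b*, at 7.84 ± 4.29 TPM, had moved from the fifth to the second place beside *Il18* at 7.29 ± 1.51 TPM.

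The antagonist exceeded the agonists in every library, by a smaller factor after bilirubin. The ratio of *Il1rn* TPM to the sum of *Il1a* and *Il1b* TPM was 28.7, 45.1, 40.4 and 20.7 in vehicle and 4.44, 12.6, 3.38 and 5.79 in bilirubin cultures of mice 1 to 4. The groups did not overlap, and the medians were 34.5 and 5.11. Within mice the log2 ratio fell by 2.49 on average (SD 0.83, n = 4). The ratio of *Il1rn* to *Il1f9* was 37.8, 47.3, 43.8 and 108 against 19.3, 8.56, 9.16 and 13, again without overlap. *Il1rn* does not bind the IL-36 receptor, so this second ratio compares transcripts of neighboring genes and was added after the values were seen.

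The IL-18 pair differed less. The ratio of *Il18* to *Il18bp* TPM was 2.23, 2.82, 2.8 and 2.81 in vehicle and 2.67, 1.98, 2.03 and 2.25 in bilirubin cultures. The groups overlapped, and the mean log2 difference was -0.26 (SD 0.35, n = 4), with mouse 1 higher and the other 3 lower. A pair of ratios chosen after the values were seen were lower in all 4 mice after bilirubin, although their groups overlapped. The median ratio of *Il1b* to *Il1a* was 5.04 in vehicle and 3.41 in bilirubin cultures, with log2 differences of -0.62, -0.42, -1.83 and -0.51 within mice. The median ratio of *Il1rap* to *Il1rn* was 0.164 and 0.103, with log2 differences of -0.38, -0.76, -0.34 and -0.95. All these ratios come from the contrast that chose the members and are descriptions of RNA, not of protein.

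**Figure D2:**
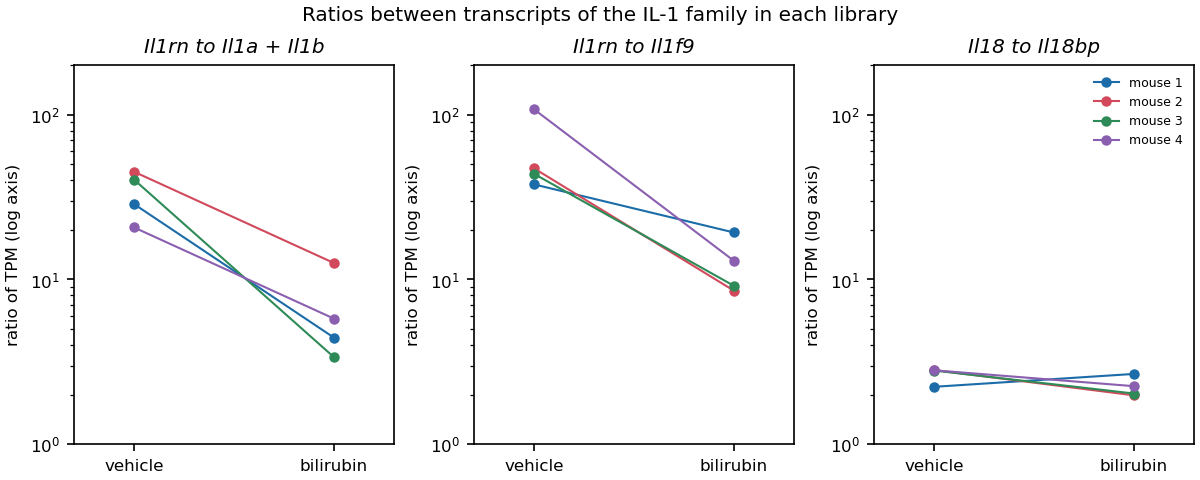
Each panel plots a ratio of TPM on a log axis in the vehicle and bilirubin cultures, with a line joining the cultures of one mouse. The ratio of *Il1rn* to *Il1a* plus *Il1b* lies between 20.7 and 45.1 in vehicle and between 3.38 and 12.6 in bilirubin cultures, and the ratio of *Il18* to *Il18bp* overlaps between them.

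The transcripts assigned to the antagonist gave the kinds of product it could encode. *Il1rn* has a secreted form with a signal peptide and intracellular forms made from upstream starts. The transcript ENSMUST00000114482, whose coding region of 178 codons has the length of the secreted precursor, held 54.3 ± 4.9% of the *Il1rn* TPM in vehicle and 53.2 ± 2.7% in bilirubin cultures (SD, n = 4). ENSMUST00000114485, with 162 codons, held 32.5 ± 5.1% and 29.0 ± 3.5%. Its annotated start, at chr2:24235300, lies close to that of ENSMUST00000114482, at chr2:24235322. The canonical ENSMUST00000114487, with 159 codons and a start 8457 bases upstream of that of ENSMUST00000114482, held 10.3 ± 3.2% and 12.6 ± 1.1%. The shares of all 3 transcripts overlapped between the groups, and that of ENSMUST00000114485 was lower in all 4 mice by TPM and in 3 of 4 by counts. TPM gives short transcripts more weight than counts do. As shares of the estimated counts in vehicle cultures, ENSMUST00000114482 held 69.7%, ENSMUST00000114487 16.7% and ENSMUST00000114485 13%, so the order of the last pair depended on the scale.

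*Il1rap* yields a membrane chain and shorter soluble forms. The canonical ENSMUST00000023156, with 570 codons, held 78.3 ± 5.1% of the TPM in vehicle and 83.1 ± 8.4% in bilirubin cultures (SD, n = 4). The shorter ENSMUST00000174202, with 360 codons, held 17.7 ± 4.8% and 11.7 ± 2.8%. The ranges of both overlapped between the groups, at 12.9 to 24.1% against 10.0 to 16% for the shorter transcript, whose share was lower in all 4 mice. As a share of the estimated counts it held 9.8 ± 2.8% and 6.3 ± 2.0%, also lower in all 4 mice.

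*Il1a* and *Il1f9* each have 1 transcript in the files. The *Il1b* counts fell on ENSMUST00000028881, with 269 codons, except in bilirubin mouse 1, where 5.28% of the counts, or 23.6% of the TPM, was placed on the short ENSMUST00000141979. *Il18* was split among ENSMUST00000213916, ENSMUST00000214117 and ENSMUST00000180021. ENSMUST00000213916, with 78 codons, held 21.4 ± 3.6% of the TPM in vehicle cultures (SD, n = 4). After bilirubin its share was higher by 0.6 percentage points on average within mice (SD 8.3, n = 4). ENSMUST00000214117, with 192 codons, held 73.8 ± 7.7% in vehicle and 52.9 ± 20.6% in bilirubin cultures (SD, n = 4). ENSMUST00000180021, which also has 192 codons, held 4.9 ± 9.7% and 25.1 ± 29.1% (SD, n = 4). For each of these transcripts the spread between mice was as large as the difference. The *Il18bp* shares varied between 0 and 80.1% for one transcript within the vehicle group. Salmon divides reads among overlapping transcripts by estimation, and at these counts the shares of *Il18* and *Il18bp* were not stable between replicates.

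**Figure D3:**
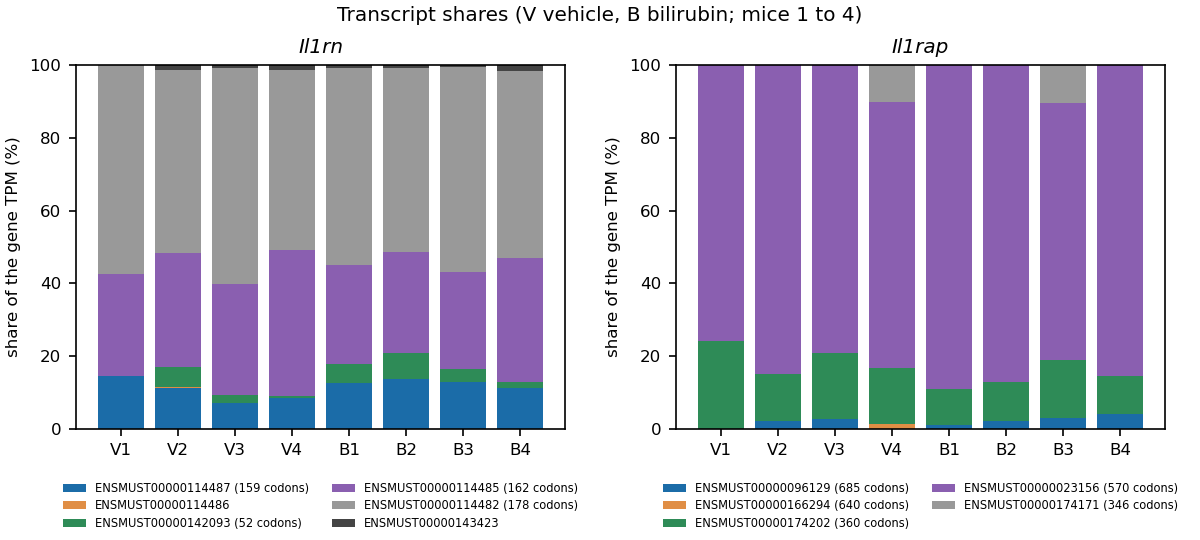
Stacked bars give the share of the gene TPM, in percent, assigned to each transcript of *Il1rn* and *Il1rap* in every library, with the number of codons where one is annotated. ENSMUST00000114482 holds about the same share of *Il1rn* in both groups, 54.3% and 53.2% on average.

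The genes around the members were taken from lists of the IL-1 pathway that leave the members out. Of 123 listed genes in the table, 104 were tested, and 32 passed as higher and 5 as lower (35.6%) in edgeR, against 7.53% of all tested genes. The median log2 fold change was 0.08 over the listed genes and -0.002 over all tested genes. The lists were assembled with earlier results of these data known, so the count is a description.

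Among the receptors for the members, the IL-36 receptor was well detected and the signaling IL-1 receptor was near the limit of detection. *Il1r1*, the signaling receptor of IL-1, had 0, 13, 9 and 7 estimated counts in vehicle and 10, 19, 25 and 15 in bilirubin cultures, or 0.0594 ± 0.0471 and 0.146 ± 0.0472 TPM (SD, n = 4). *Il1rl2*, the receptor that binds IL-36 gamma, had between 498 and 628 counts, at 6.32 ± 0.523 and 6.83 ± 0.847 TPM (SD, n = 4). In all 8 libraries *Il1rl2* thus stood above *Il1r1*, and its vehicle range of 5.76 to 6.89 TPM overlapped that of *Il1rap*. *Il18r1*, the ligand-binding chain of the IL-18 receptor, was at 0 counts in every library, which allows up to 3 counts in each, while its partner *Il18rap* was at 0.648 ± 0.157 and 0.643 ± 0.163 TPM (SD, n = 4).

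None of the 5 tested receptor genes passed in edgeR, DESeq2 or limma, and 3 had an unadjusted p under 0.05 in edgeR. *Il1r1* had a log2 fold change of 1.49 ± 0.56 (edgeR adjusted p = 0.175) and was higher in 4 of 4 mice. Because *Il1r1* passed the filter on low counts only through its bilirubin cultures, its test rests on a group chosen by its high values. *Il1rl2* had 0.20 ± 0.06 (edgeR adjusted p = 0.0904) and was higher in 4 of 4 mice. *Sigirr*, an inhibitory receptor named after its value was seen, had -0.57 ± 0.20 (edgeR adjusted p = 0.148) and was lower in 4 of 4 mice. *Il18rap* had 0.02 ± 0.28 (edgeR adjusted p = 0.982).

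**Figure D4:**
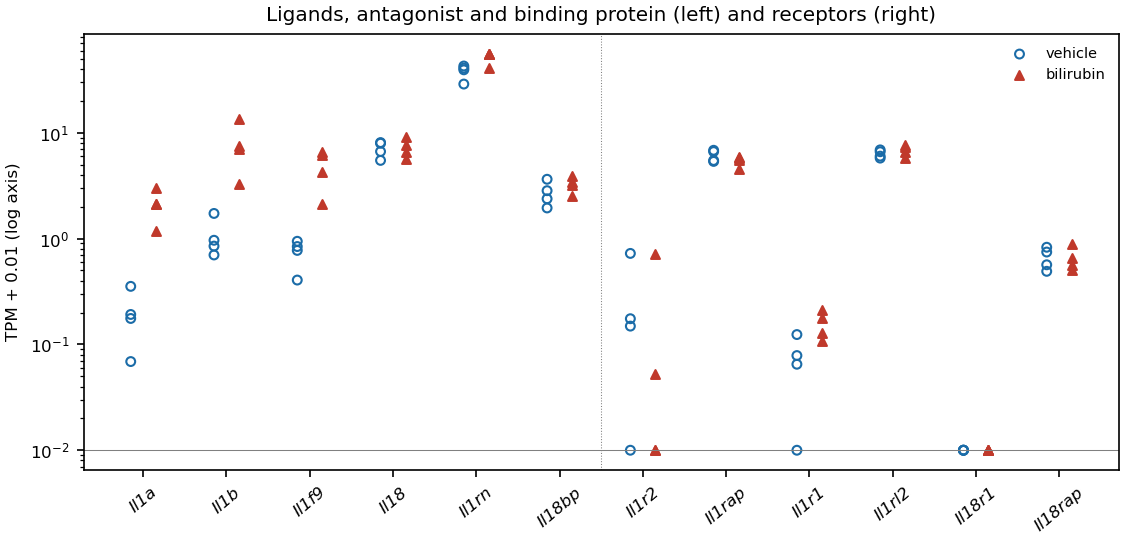
Points give TPM + 0.01 on a log axis in the 4 vehicle (circles) and 4 bilirubin (triangles) libraries, for ligands, the antagonist and the binding protein on the left and receptors on the right; the gray line marks 0 TPM. *Il1rl2* (6.32 TPM in vehicle) lies beside *Il1rap* (6.07 TPM), *Il1r1* (0.0594 TPM) lies far below them, and *Il18r1* is at 0.

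Of 20 tested kinases, adaptors and related genes below the receptors, 1 passed as higher and 1 as lower in edgeR. *Map3k8*, the kinase TPL2, rose from 5.72 ± 0.551 to 8.90 ± 2.22 CPM (log2 fold change 0.62 ± 0.14, edgeR adjusted p = 0.0346). *Traf6*, the ubiquitin ligase that links MyD88 complexes to NF-kappaB, fell from 55.9 ± 2.98 to 45.5 ± 2.15 CPM (-0.30 ± 0.04, edgeR adjusted p = 0.00478). *Myd88*, *Irak1*, *Irak2* and *Irak4* did not pass in edgeR, DESeq2 or limma, with edgeR log2 fold changes of 0.14, -0.13, -0.11 and -0.04.

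Of 13 tested negative regulators of the same signal, 8 passed as higher in edgeR and none passed as lower. The inhibitors of NF-kappaB led them. *Nfkbie* rose from 18.9 ± 0.416 to 42.8 ± 6.66 CPM (log2 fold change 1.17 ± 0.09, edgeR adjusted p = 0.00018) and *Nfkbia* from 89.3 ± 8.9 to 153 ± 24.8 CPM (0.77 ± 0.07, edgeR adjusted p = 0.000382). *Tnip1*, a partner of the deubiquitinase A20, rose by 0.52 ± 0.06 and *Irak3*, a kinase-like brake on MyD88 signaling, by 0.51 ± 0.06 (edgeR adjusted p = 0.000973 and 0.00212). Smaller rises passed for *Tnfaip3*, which encodes A20 (0.38), *Dusp1* (0.29), *Nfkbib* (0.26) and *Tank* (0.24), and these 4 passed in only 7 of 12 alternative settings each.

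Among 22 tested genes for processing and release of the cytokines, 6 passed as higher in edgeR and none passed as lower. *Mefv*, which encodes the inflammasome sensor pyrin, rose from 11.9 ± 1.46 to 38.2 ± 9.09 CPM (log2 fold change 1.67 ± 0.08, edgeR adjusted p = 3.06e-05). *Casp4*, the mouse gene for the caspase that senses cytosolic lipopolysaccharide, rose by 0.58 ± 0.06 (edgeR adjusted p = 0.00108). *S100a10* rose by 0.42, *Nlrp3*, the sensor best known for IL-1 beta maturation, by 0.40, *Ninj1*, which ruptures the membrane of dying cells, by 0.33, and *Gsdmd*, the pore through which IL-1 beta leaves, by 0.26. *Casp1* and *Pycard*, the caspase and adaptor of the inflammasome, had 0.10 each and did not pass in edgeR, DESeq2 or limma.

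Of 21 tested transcription factors tied to the family, 6 passed as higher and 1 as lower in edgeR. The genes that passed as higher encode NF-kappaB subunits, nuclear IkappaB-like proteins and AP-1 subunits. *Relb* rose from 15.6 ± 0.98 to 31.4 ± 4.84 CPM (log2 fold change 1.00 ± 0.08, edgeR adjusted p = 0.000221), *Nfkbiz* from 5.81 ± 0.419 to 11.2 ± 2.11 CPM (0.93 ± 0.11) and *Nfkb2* from 43.1 ± 2.61 to 66.8 ± 5.59 CPM (0.63 ± 0.04). *Bcl3*, *Fos* and *Junb* rose by 0.58, 0.45 and 0.36, and *Bhlhe40*, a repressor of *Il10*, fell by 0.35. *Rela*, *Rel*, *Nfkb1* and *Spi1*, at 0.10, 0.04, 0.16 and 0.08, did not pass in edgeR, DESeq2 or limma. *Cebpb*, at 0.29, did not pass in edgeR (adjusted p = 0.0592) but passed in DESeq2 (adjusted p = 0.00339) and limma (adjusted p = 0.0473), and *Irf8* passed in DESeq2 alone, so that 9 genes of this list passed in DESeq2 and 8 in limma. Of 9 tested regulators of mRNA decay, *Zc3h12a*, which encodes the nuclease Regnase-1, rose by 0.66 ± 0.10 (edgeR adjusted p = 0.00475) and *Rc3h2* fell by 0.18 (edgeR adjusted p = 0.0231).

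Of 22 listed genes known to respond to IL-1 in other cells, 14 were tested. Among the tested genes 10 passed as higher and 2 as lower in edgeR, and the median log2 fold change was 1.11. The others did not reach the filter on low counts. *Ccl20* and *Steap4* were at 0 in all 8 libraries. *Il6*, *Csf2*, *Csf3*, *Cxcl5*, *Mmp3* and *Vcam1* had at most 7, 3, 11, 14, 4 and 17 counts in a library. *Saa3*, an acute phase protein, rose from 3.19 ± 0.322 to 131 ± 49.2 CPM (log2 fold change 5.32 ± 0.16, edgeR adjusted p = 6.48e-06). *Lcn2*, which binds bacterial siderophores, had 6, 1, 4 and 3 counts in vehicle and 88, 66, 178 and 136 in bilirubin cultures (5.18 ± 0.32, edgeR adjusted p = 7.58e-05). It passed the filter on low counts only through its bilirubin cultures. So did *Nos2*, which is among the 10 that passed as higher and averaged 0.0257 CPM in vehicle and 0.789 CPM in bilirubin cultures. For *Lcn2* and *Nos2* the test thus rests on a group chosen by its high values. The summed *Lcn2* counts of 14 and 468 gave a ratio of 37.9 with a 95% exact interval of 22.4 to 69.9. *Cxcl1* rose from 0.596 ± 0.151 to 6.92 ± 2.92 CPM (3.49 ± 0.19), *Tnf* by 0.79 and *Icam1*, an adhesion molecule, by 0.76. The monocyte chemokine gene *Ccl7* fell from 32.7 ± 8.27 to 17.0 ± 5.2 CPM (-0.96 ± 0.08, edgeR adjusted p = 0.000294), and *Ccl2*, named after its value was seen, fell by 0.59. These genes also respond to other signals, and whether IL-1 acted on the cultures was not tested.

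**Figure D5:**
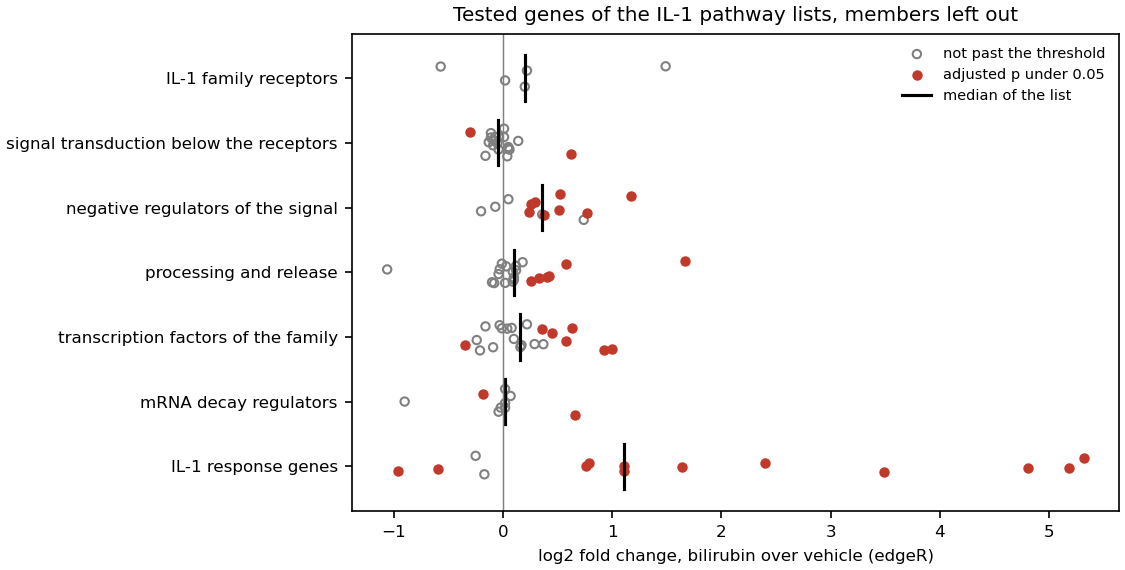
Points give the edgeR log2 fold change (bilirubin over vehicle) of each tested gene of the pathway lists, filled where the adjusted p was under 0.05, with a black line at the list median; vertical offsets within a list carry no value. The medians run from -0.04 for signal transduction to 0.36 for negative regulators and 1.11 for IL-1 response genes.

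Markers of neutrophils, which also express *Il1b*, *Il1rn* and *Il1r2*, were measured beside the members. Their summed level was 167 to 192 CPM in vehicle and 192 to 222 CPM in bilirubin cultures, and *Mmp8* and *Csf3r* made up most of it. Of the 14 markers 5 were tested and *S100a8* alone passed in edgeR (log2 fold change 1.07 ± 0.09, edgeR adjusted p = 0.000334). In DESeq2 2 markers passed, and in limma 1. The other tested markers, *Mpo*, *Mmp8*, *Csf3r* and *Cxcr2*, had edgeR log2 fold changes of 0.55, 0.19, -0.06 and -0.27. Below the filter, *S100a9* was higher in 4 of 4 mice, *Ngp* and *Cd177* in 3, *Camp* and *Ltf* in 2, and *Elane* and *Ly6g* in 1. *Retnlg* and *Stfa2l1* were at 0 in all 8 libraries, and *Ly6g* had at most 3 counts in a library. Monocyte markers summed to 9.42 to 14.9 CPM and 9.61 to 15.3 CPM, with *Vcan* higher (2.26 ± 0.23) and *F13a1* lower (-0.99 ± 0.24) of 3 tested, both past the threshold in edgeR. The part of these cells in the member levels was not tested.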

How the data were processed

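Bulk RNA of 8 BMDM cultures (4 mice, vehicle and bilirubin) was analysed. Per the labels and the methods of the study, the authors trimmed reads with Trim Galore 0.6.7 and Cutadapt 3.4, aligned with STAR 2.7.9a and quantified with Salmon 1.10.1 on GRCm39. They deposited estimated counts per gene (summed from transcripts) and, for 142434 transcripts per library, estimated counts and TPM scaled by the authors' tool for length and depth. Of the gene values above 0, 73.9% were whole within 0.001, and counts were rounded here.

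The quasi-likelihood test of edgeR 4.0.16 (R 4.3.3) was fitted with mouse and treatment on all 8 libraries, with TMM scaling, filterByExpr (minimum count 10, total 15) and Benjamini-Hochberg adjustment over 13722 genes at 0.05. This test was used in place of the authors' limma fit, which was one of the alternatives (limma 3.58.1), with DESeq2 1.42.0, other scalings and filters, a transcript-length offset, no mouse term and each mouse left out. The study's labels give the pairs by mouse, and deviations from the group means correlated within mice at 0.108, 0.134, 0.108 and -0.005, against at most 0.075 between mice. Log2 CPM used a prior count of 2. The SE of a log2 fold change was its absolute value divided by the square root of the edgeR F statistic. It therefore uses a spread moderated across genes and is not the SE of the 4 within-mouse differences. Those differences had an SD of 1.14 for *Il1a*, 0.75 for *Il1b*, 0.85 for *Il1f9* and 0.09 for *Il1rn*.

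The members and lists were chosen with earlier results of these data known. All members are named. Of each pathway list, every gene past the threshold is named where at most 8 passed, otherwise the 6 with the smallest p, besides the receptors *Il1r1*, *Il1rl2*, *Il18r1* and *Il18rap*, and for 4 members the 3 genes with the closest within-mouse differences. Genes given as not passing were named after their values were seen. Promoters were read from the GRCm39 genome with GENCODE starts; the mice are Balb/cJ and the reference is another strain. Intervals cover counting error only.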

Additional observations from a re-analysis of the deposited data

Results flagged for a closer look

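A pair of groups held a sample far from the others among 34 groups of 4 tested, by the gap to the nearest sample over the whole range, by a rule (Dixon) that picks out about 5% of groups by chance. In the bilirubin cultures the log2 CPM of *Il1rn* was lowest in mouse 1, with a gap of 0.888 of the range. Its CPM was 36.8 there against 52.7 to 55.1 in the others, and mouse 1 was also the lowest vehicle culture.

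The log2 ratio of *Il18* to *Il18bp* in vehicle cultures was lowest in mouse 1, with a gap of 0.977 of the range. The ratio was 2.23 there against 2.8 to 2.82 in the others.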

How the results depend on the processing

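Across 12 alternatives the log2 fold changes lay between 3.01 and 3.90 for *Il1a*, 2.41 and 3.04 for *Il1b*, 2.45 and 3.04 for *Il1f9* and 0.49 and 0.56 for *Il1rn*, and between -0.09 and 0.13 for *Il18*, 0.24 and 0.42 for *Il18bp* and -0.15 and 0.03 for *Il1rap*. The count of genes past the threshold, 1033, was 686 without the replicate block for mouse, 1692 with no filter on low counts and 579 with an offset for transcript length. Leaving out 1 mouse gave between 377 (without mouse 3) and 1910 (without mouse 1). Pathway genes past the threshold, 37, numbered 29 without the replicate block, 49 with no filter on low counts and 27 with an offset for transcript length. For these genes, leaving out 1 mouse gave between 23 (without mouse 3) and 45 (without mouse 1). The cause of these shifts was not tested. Scaling by library size alone turned 616 higher and 417 lower genes into 527 higher and 556 lower. *Tnfaip3*, *Nfkbib*, *Tank*, *Dusp1*, *Gsdmd* and *Rc3h2* passed in 7 of 12 alternatives, *Map3k8*, *Ninj1* and *Bhlhe40* in 9, and *Nlrp3*, *Bcl3*, *Junb* and *Zc3h12a* in 10. The ratio of *Il1rn* to *Il1r2* was planned and not computed, because *Il1r2* was at 0 in 3 libraries. Low counts limit the values of *Il1a* (3 to 17 vehicle counts), *Il1r2*, *Il1r1* and *Lcn2*.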
